A study of Arabidopsis thaliana with 12 samples.

Results

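The plastid-encoded photosynthesis genes are 44 of the 33349 loci listed for each condition, and 44 of the 130 loci on the plastid chromosome. They were taken as the plastid loci with an ATCG identifier whose gene name starts with *psa*, *psb*, *pet*, *atp* or *ndh*, or is *rbcL*, *ycf3*, *ycf4*, *ycf6* or *ycf9*. They comprise 5 *psa* loci, 14 *psb* loci, 5 *pet* loci, 5 *atp* loci, 12 *ndh* loci, *rbcL* and 2 *ycf* loci. *ycf6* is *petN* and *ycf9* is *psbZ*, and both are counted in the families of those names. The locus listed as PSBG is *ndhK*. *psbD* with *psbC*, and *atpB* with *atpE*, overlap and were listed as 1 merged locus each. RNA came from entire *Arabidopsis thaliana* seedlings of WT (ecotype Col-0) or of *sig2-2*, 1 T-DNA insertion line of the *SIG2* gene, after 1 d or 7 d. All seedlings of both genotypes were grown at 22°C on MS medium with sucrose in constant red (Rc) light, 50 μmol m−2 s−1. There were 3 biological replicates in each of the 4 conditions (12 samples). The deposited value is 1 FPKM (fragments counted per unit of transcript length and relative to all mapped fragments) per locus and condition, combined over the 3 replicates, so no replicate error can be given and no difference below was tested.

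Chloroplasts transcribe their genes with a nuclear-encoded polymerase and with a bacterial type, plastid-encoded polymerase (PEP). Sigma factors, which are encoded in the nucleus, direct PEP to its promoters, and SIG2 is one of them. Most of the genes described here encode core subunits of the thylakoid complexes: photosystem II (PSII, *psb*), photosystem I (PSI, *psa*), the cytochrome *b6f* complex (*pet*), ATP synthase (*atp*) and the NADH dehydrogenase-like complex (NDH, *ndh*), which takes part in cyclic electron flow around PSI. *rbcL* encodes the large subunit of Rubisco, the enzyme of CO2 fixation. Many of them are transcribed together in multigene units from which smaller RNAs are processed, and the remaining subunits of each complex are encoded in the nucleus.

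*SIG2*, listed as SIGB, was at 66.5 (WT) and 1.31 FPKM (*sig2-2*) at 1 d, and at 87.7 and 1.49 FPKM at 7 d, so both *sig2-2* values lay below both WT values. The libraries were made with a kit for mRNA, which captures RNA through its poly(A) tail, and plastid RNAs mostly lack a long one. The share of a plastid RNA that carries a tail and the amount of that RNA therefore cannot be told apart in these values, nor can fewer plastids from less RNA per plastid in whole seedlings. The members held 0.0727% of the summed FPKM of all loci in WT and 0.0447% in *sig2-2* at 1 d, and 0.121% and 0.698% at 7 d. Their own sums were 1046 and 575 FPKM at 1 d, and 1214 and 7573 FPKM at 7 d. The shares also depend on 1 nuclear locus, AT2G01021, which held 32.4% (WT) and 25.5% (*sig2-2*) of all FPKM at 1 d, and 5.44% and 11.2% at 7 d.

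Several members are so short that few fragments of a library can come from them, and some share bases or lie against a gene of the other strand. Listed positions of 37 of the 42 single-gene members were those of the coding sequence, with introns and without UTRs, in the RefSeq annotation of TAIR10.1, once the start was counted from 1. The sequences below are from the plastid chromosome of that build. They show the shortest member (*petN*), the member with the smallest ratio between genotypes at 7 d (*psaJ*), and 2 neighbours on opposite strands (*psbT*, plus, and *psbN*, minus). Capitals mark the first and the last codon.
petN: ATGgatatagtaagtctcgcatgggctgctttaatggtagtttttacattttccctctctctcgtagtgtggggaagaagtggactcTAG
psaJ: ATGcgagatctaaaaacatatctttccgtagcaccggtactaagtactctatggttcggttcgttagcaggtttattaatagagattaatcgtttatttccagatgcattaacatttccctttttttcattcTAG
psbT: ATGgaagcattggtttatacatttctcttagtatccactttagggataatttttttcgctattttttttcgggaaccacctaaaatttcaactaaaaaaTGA
psbN: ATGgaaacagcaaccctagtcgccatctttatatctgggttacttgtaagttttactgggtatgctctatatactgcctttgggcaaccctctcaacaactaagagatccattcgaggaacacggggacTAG

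*petN* (90 bases, plastid 28089 to 28178, plus strand) and *psaJ* (135 bases, 66929 to 67063, plus strand) are single exons. *psbT* (102 bases, 74082 to 74183) lies in the *psbB* unit. *psbN* (132 bases, 74249 to 74380) lies within that unit between *psbT* and *psbH* on the other strand. Strand-specific counting is not stated, so *psbN* reads and unprocessed RNA of the *psbB* unit cannot be told apart. The merged loci are shown by the bases that their genes share.
psbD-psbC: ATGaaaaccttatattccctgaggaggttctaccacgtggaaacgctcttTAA
atpB-atpE: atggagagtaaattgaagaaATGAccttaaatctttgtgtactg

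The 53 bases of the first line (33720 to 33772, plus strand) belong to both *psbD* and *psbC*, with the first codon of *psbC* and the last codon of *psbD* in capitals. In the second line (52640 to 52683, minus strand) the 4 capitals belong to both *atpB* and *atpE*, and 20 bases on each side are in lower case. The 2 copies of *ndhB* in the inverted repeat are identical over 2224 bases, so that 0% of their 55-nt words, the read length of the study, occur once in the genome. Of the other 44 member genes, 38 had every 55-nt word once, and the lowest share was 86.9% (*rbcL*).

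PEP promoters carry boxes like those of bacterial promoters. The letters TTGAC, a gap of 17 to 20 bases and TANNNT were looked for in the 300 bases before each gene's start, on the strand of the gene. This pattern was in 12 of 131 windows of plastid genes (9.16%) and, among the members, before *psbA* and *petN*. Both matches are shown with the outer boxes in capitals and 18 bases between them (*psbA*, 1530 to 1559, minus strand; *petN*, 28001 to 28030, plus strand).
psbA: TTGACAtggctatataagtcatgtTATACT
petN: TTGACTctgcaccagtgatttcacTATTAT

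Both genes were lower in *sig2-2* at 1 d and higher at 7 d, as were most members without a match, and the pattern's presence is no measure of a factor's use of it.

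Of the members, 17 span fewer than 300 bases and 9 fewer than 130 bases. The smallest value above 0 among loci of nearly the same span (within 2 bases for members under 130 bases, and within 4 or 12 bases for longer ones) gives a scale for what little signal such a locus can show. For the 9 shortest members it was taken from only 3 to 10 loci above 0, and it was uneven. In *sig2-2* at 7 d it was 23.9 FPKM for *psbF* (120 bases) and 8.34 FPKM for *psbJ* (123 bases), so multiples of it are rough. Leaving out those listed at 0, the 9 shortest members stood at a median of 2.22 times that smallest value in *sig2-2* at 1 d. The medians were 3.34 times in WT at 1 d, 4.52 times in WT at 7 d and 24.8 times in *sig2-2* at 7 d. Their values at 1 d thus rest on very little signal, and *psbT* in *sig2-2* at 1 d, at 0.925 times, was below it. *psbM* and *psbL* were listed at 0 in *sig2-2* at 1 d and *petG* in WT at 7 d, which at these spans does not show absence. Levels were higher in shorter members in every condition (Spearman's rho of −0.55 to −0.65 with span over 38 members above 0 throughout, as a description), whereas log2 changes followed span little (rho from −0.13 to 0.10).

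**Figure D1:**
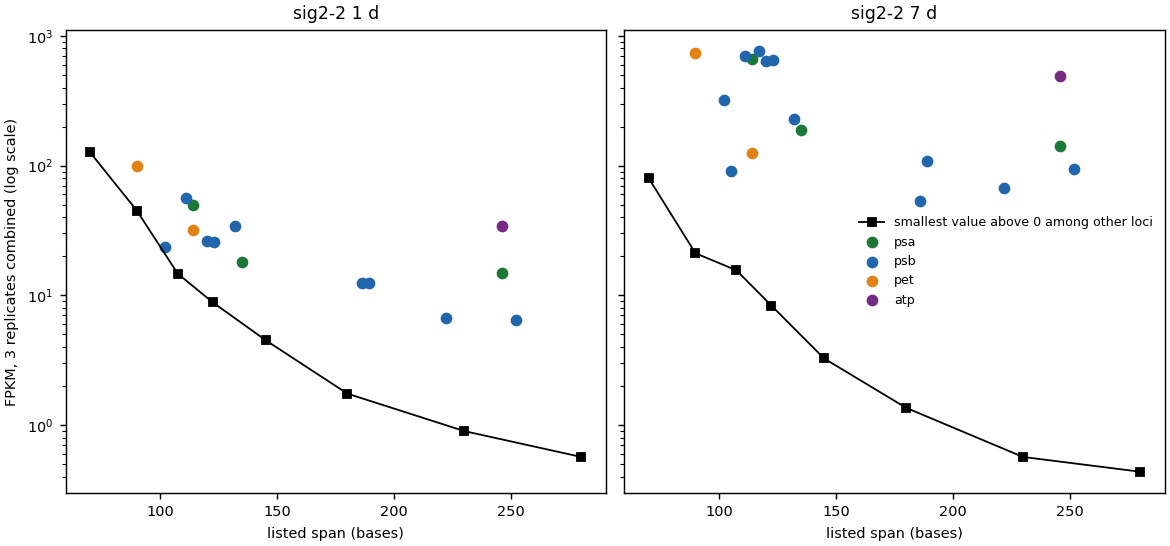
FPKM (log scale) of members under 300 bases and above 0 against listed span in *sig2-2* at 1 d and 7 d, with the smallest value above 0 among other loci by span as black squares. At 1 d the points under 130 bases lie close to the line, with a median of 2.22 times the smallest value for their span, and at 7 d clear of it, with a median of 24.8 times.

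At 1 d, 37 of the 44 members were lower in *sig2-2* than in WT, 5 were higher and both *ndhB* copies were at 0 in both genotypes. At 7 d, 43 were higher in *sig2-2* and the last, 1 *ndhB* copy, was at 0 throughout. The median over all members was 12.8 (WT) and 6.13 FPKM (*sig2-2*) at 1 d, and 7.13 and 79.5 FPKM at 7 d. Differences are given as log2 of (FPKM + 1) ratios, which understates the difference of low genes, and 2-fold is a log2 of 1. At least 2-fold lower at 1 d were 11 members (against 0.732% of all loci and 1.29% of loci at 1 FPKM or more in either genotype), of which 3 were listed at 0 in *sig2-2*. At least 2-fold higher at 1 d were 2 (1.66% and 2.92% of those loci), *psbN* and *ndhE*. At 7 d, 40 members were at least 2-fold higher (2.95% of all loci and 4.88% of those at 1 FPKM or more) and 0 were lower (2.33% and 3.85%), while *psaJ*, *psbM* and both *ndhB* loci stayed within 2-fold. The median log2 difference over the members was −0.56 at 1 d and 2.86 at 7 d, against 0 over all loci at both ages. As shares of the summed plastid FPKM, the medians were 0.67 at 1 d, with 34 members higher and 8 lower in *sig2-2*, and 0.049 at 7 d, with 23 higher and 20 lower. That sum covers all 130 plastid loci, with 37 tRNA loci, of which 28 (WT) and 34 (*sig2-2*) were listed at 0 at 1 d. At that age it was 4424 (WT) and 1518 FPKM (*sig2-2*). Members gave 1046 and 575 FPKM of it, and other protein and open reading frame loci 909 and 544 FPKM. The rest came from tRNA and rRNA loci. In WT this rest exceeded both other parts together, and in *sig2-2* it was below either. Scaled values at 1 d, and the sign of some, therefore depend on few tRNA loci. At 7 d the sum was 2459 (WT) and 19664 FPKM (*sig2-2*). Members gave 1214 and 7573 FPKM of it, and other protein and open reading frame loci 479 and 4054 FPKM. No sum without tRNA and rRNA loci was used. With the pseudocount, scaling to the plastid sum moved members above 0 in both genotypes by a log2 of 0.76 to 1.54 at 1 d. At 7 d it moved them by −2.99 to −2.06, and at both ages low members least. The directions that follow are on the deposited scale.

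**Figure D2:**
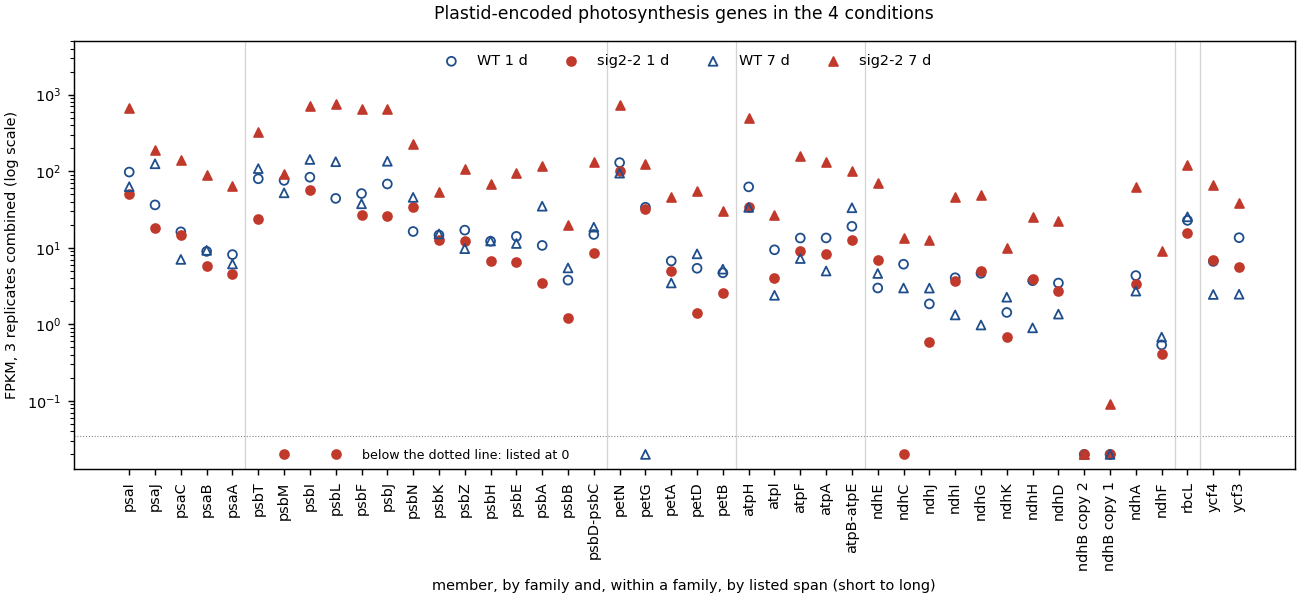
FPKM (log scale) of each of the 44 members in the 4 conditions, by family and then by span; points below the dotted line are listed at 0. The filled triangles (*sig2-2* at 7 d) are the highest of the 4 points for all but *ndhB* copy 2, with a median of 79.5 FPKM against 6.13 to 12.8 FPKM in the other conditions.

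The PSII genes had the largest negative median among the families at 1 d (log2 −0.97, 14 loci) and, leaving *rbcL* aside, the smallest at 7 d (2.30). Both signs turn when plastid FPKM is scaled to its sum, tRNA and rRNA loci included (0.50 and −0.68). *psbA*, which encodes the D1 protein of the PSII reaction centre, was at 10.7 (WT) and 3.43 FPKM (*sig2-2*) at 1 d, and at 34.9 and 116 FPKM at 7 d. The *sig2-2* value was 0.320 times that of WT at 1 d and 3.33 times at 7 d. *psbA* was also the member of 300 bases or more with the largest difference between ages in *sig2-2* other than *petD*, 33.8-fold. *psbB*, for the core antenna protein CP47, was at 3.77 and 1.22 FPKM at 1 d and at 5.45 and 19.96 FPKM at 7 d. The merged *psbD-psbC* locus, which encodes the D2 reaction centre protein and the core antenna protein CP43, was at 14.9 and 8.58 FPKM at 1 d and at 18.6 and 134 FPKM at 7 d, a 7.20-fold difference. These 3 loci, none of them short, were thus lower in *sig2-2* at 1 d and higher at 7 d, and *psbD-psbC* differed most of them at 7 d.

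The small PSII subunits varied more, on less signal. *psbE* and *psbF* encode the subunits of cytochrome *b559*, and *psbL* and *psbJ* follow them in the same unit. *psbF* was at 51.0 (WT) and 26.4 FPKM (*sig2-2*) at 1 d, and at 37.5 and 644 FPKM at 7 d. *psbJ* was at 68.0 and 25.8 FPKM at 1 d and at 135 and 650.3 FPKM at 7 d. *psbL* was at 44.1 and 0 FPKM at 1 d, and at 133 and 761 FPKM at 7 d, the highest value of any member in any condition. In this unit the *sig2-2* value was below WT for every gene at 1 d and 4.83 to 17.2 times WT at 7 d. *psbI*, a small subunit next to the reaction centre, was at 83.4 and 56.0 FPKM at 1 d and at 142 and 701 FPKM at 7 d. *psbT*, for a small subunit of the core, was at 79.6 and 23.8 FPKM at 1 d and at 108 and 321 FPKM at 7 d. *psbN*, needed for PSII assembly although not a subunit of it, was at 16.3 and 34.04 FPKM at 1 d and at 45.5 and 229 FPKM at 7 d. It was the only *psb* locus that was higher in *sig2-2* at 1 d (2.09-fold), the opposite side from *psbT* and *psbH* that flank it, on values of 2.21 times (WT) and 4.76 times (*sig2-2*) the smallest value for its span.

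For PSI, *psaA* and *psaB*, which encode the reaction centre proteins and are neighbours in 1 unit, were close to each other throughout. *psaA* was at 8.14 (WT) and 4.59 FPKM (*sig2-2*) at 1 d, and at 6.14 and 63.8 FPKM at 7 d. *psaB* was at 8.97 and 5.81 FPKM at 1 d and at 9.24 and 88.2 FPKM at 7 d. The *psaA* level was 0.908, 0.789, 0.664 and 0.723 times that of *psaB* in WT and *sig2-2* at 1 d and in WT and *sig2-2* at 7 d. *psaC*, for the subunit that carries the terminal iron-sulfur clusters and lies within the *ndh* unit, was at 16.1 and 14.9 FPKM at 1 d and at 7.04 and 141 FPKM at 7 d. The *psaC* ratio between genotypes at 7 d was 20.01, the largest of the *psa* loci. *psaI*, a small PSI subunit, was at 97.3 and 50.0 FPKM at 1 d and at 62.7 and 662 FPKM at 7 d, a ratio of 10.6. *psaJ*, another small subunit, was at 36.3 and 18.1 FPKM at 1 d and at 125 and 187 FPKM at 7 d. Its ratio at 7 d, 1.501, was the smallest among members above 0 in both genotypes, and in WT it was 3.44 times its 1 d value at 7 d. *petG*, which precedes it in the *petL* unit, was instead listed at 0 in WT at 7 d and at 125 FPKM in *sig2-2*.

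All 5 *pet* loci were lower in *sig2-2* at 1 d and at least 2-fold higher at 7 d, with medians of −0.37 and 2.94. As shares of plastid FPKM, tRNA and rRNA loci included, these medians turn to 1.05 and −0.041. *petA*, which encodes cytochrome *f*, was at 6.72 (WT) and 4.999 FPKM (*sig2-2*) at 1 d, and at 3.47 and 45.4 FPKM at 7 d. *petB*, for cytochrome *b6*, was at 4.71 and 2.58 FPKM at 1 d and at 5.25 and 30.2 FPKM at 7 d. *petD*, for subunit IV, was at 5.39 and 1.42 FPKM at 1 d and at 8.32 and 54.7 FPKM at 7 d. *petD* had the smallest ratio between genotypes at 1 d of the members above 0 (0.263) and the largest ratio between ages in *sig2-2* (38.6). *petN*, for a small subunit, was at 129 and 99.9 FPKM at 1 d, the highest member value of both genotypes at that age, and at 94.2 and 732 FPKM at 7 d. *petL*, another small subunit, is listed as ORF31 and so falls outside the naming rule. It was at 72.0 and 0 FPKM at 1 d and at 88.4 and 543 FPKM at 7 d.

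The ATP synthase genes differed between genotypes by unequal amounts in their 2 units. The *atpI*, *atpH*, *atpF* and *atpA* genes form 1 unit and encode subunits a, c and b of the membrane part and the α subunit of the catalytic part. *atpA* was at 13.4 (WT) and 8.29 FPKM (*sig2-2*) at 1 d, and at 4.97 and 132 FPKM at 7 d (26.6-fold). *atpF* was at 13.4 and 8.99 FPKM at 1 d and at 7.23 and 160.1 FPKM at 7 d (22.2-fold), the highest of the members of 300 bases or more in that condition. *atpH* was at 62.4 and 34.1 FPKM at 1 d and at 33.6 and 489 FPKM at 7 d (14.5-fold), and *atpI* at 9.40 and 3.99 FPKM at 1 d and at 2.39 and 26.7 FPKM at 7 d (11.2-fold). The 4 genes of the unit were all lower at 7 d than at 1 d in WT and 11.2-fold to 26.6-fold higher in *sig2-2* than in WT at 7 d. The merged *atpB-atpE* locus, which encodes the β and ε subunits of the catalytic part, was at 19.0 and 12.7 FPKM at 1 d and at 33.3 and 99.7 FPKM at 7 d, a ratio of 2.998. The α and β subunits meet in the same catalytic hexamer, and the ratio of *atpA* to *atpB-atpE* was 0.706 in WT and 0.655 in *sig2-2* at 1 d, 0.149 in WT at 7 d and 1.32 in *sig2-2* at 7 d.

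The NDH genes differed widely among themselves at 7 d. The unit that runs from *ndhH* over *ndhA*, *ndhI*, *ndhG*, *ndhE* and *psaC* to *ndhD* had *sig2-2* values 15.3 to 50.0 times those of WT at 7 d, with a median of 22.7. *ndhG* was at 4.64 (WT) and 5.005 FPKM (*sig2-2*) at 1 d, and at 0.979 and 48.9 FPKM at 7 d, the largest ratio of all members (50.0). *ndhI*, for an iron-sulfur subunit, was at 4.06 and 3.68 FPKM at 1 d and at 1.32 and 46.6 FPKM at 7 d (35.2-fold). *ndhE* was at 2.98 and 7.00 FPKM at 1 d and at 4.61 and 70.8 FPKM at 7 d, and was the only member over 300 bases that was at least 2-fold higher in *sig2-2* at 1 d. Across this unit the difference at 1 d was small, with a median log2 of −0.11 over 7 loci, whereas 7 of the 7 were past 2-fold at 7 d. The *ndhC*, *ndhK* and *ndhJ* genes form another unit, and their ratios at 7 d were 4.22 to 4.56. *ndhK* was at 1.43 and 0.686 FPKM at 1 d and at 2.26 and 9.98 FPKM at 7 d, and *ndhC* was listed at 0 in *sig2-2* at 1 d. *ndhF*, transcribed on its own and listed over a region that a *ycf1* locus shares, was the lowest member above 0 in every condition except for *ndhB* copy 1, at 0.539 and 0.407 FPKM at 1 d and at 0.680 and 9.15 FPKM at 7 d. *ndhB* copy 1 was at 0 in 3 conditions and at 0.0908 FPKM in *sig2-2* at 7 d, and copy 2 was at 0 in all 4. As no 55-nt word separates the copies, and how reads with several matches were counted is not given in the sources used here, these zeros are reported as listed. Over the family, the median log2 was −0.12 at 1 d and 2.96 at 7 d (0.84 and 0.71 as shares of plastid FPKM).

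*rbcL* was at 22.8 (WT) and 15.8 FPKM (*sig2-2*) at 1 d, the highest member of 300 bases or more in both, and at 25.3 and 121 FPKM at 7 d, a ratio of 4.78. Set against *psbA*, which had the highest value of that length class in WT at 7 d, the *psbA* level was 0.471 times that of *rbcL* in WT and 0.218 times in *sig2-2* at 1 d, and 1.38 and 0.959 times at 7 d. *ycf3* and *ycf4* encode assembly factors of PSI. *ycf3* was at 13.5 and 5.65 FPKM at 1 d and at 2.47 and 39.0 FPKM at 7 d (15.8-fold). *ycf4* was at 6.63 and 6.96 FPKM at 1 d and at 2.45 and 66.6 FPKM at 7 d (27.1-fold). Both assembly factors thus had larger ratios at 7 d than the reaction centre genes *psaA* (10.4) and *psaB* (9.54).

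**Figure D3:**
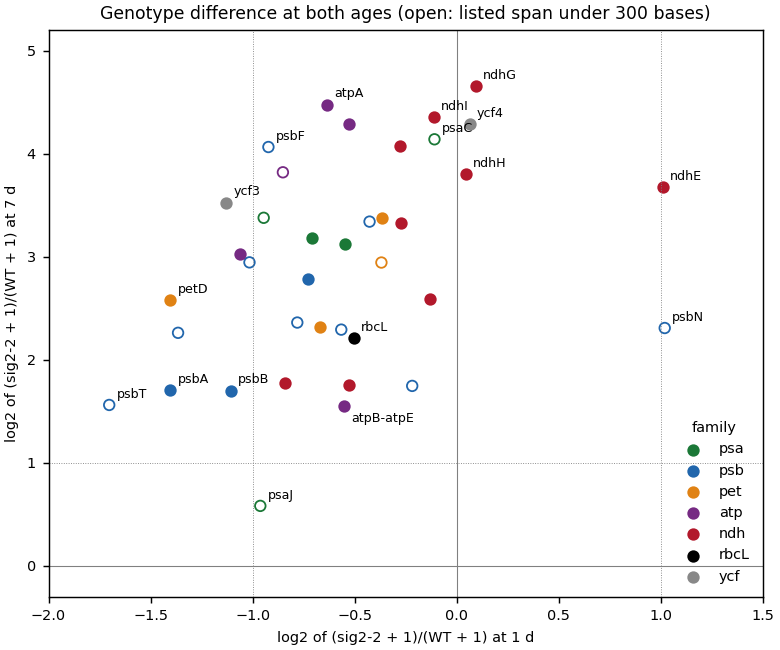
log2 of (*sig2-2* + 1)/(WT + 1) at 7 d against 1 d for the 38 members above 0 in all 4 conditions, by family, with open circles for spans under 300 bases and dotted lines at 2-fold. Of the 38, 33 lie left of 0 at 1 d and all lie above 0 at 7 d. Scaled to the summed plastid FPKM, tRNA and rRNA loci included, the points would shift by 0.76 to 1.54 along the 1 d axis. Along the 7 d axis they would shift by −2.99 to −2.06, and the medians over all members would be 0.67 at 1 d and 0.049 at 7 d.

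Ordered by unit, the genotype difference at 7 d was largest in the *ndhH* and *atpI* units among those with several loci. The median log2 was 4.08 for the 7 loci of the *ndhH* unit, 4.06 for the 4 of the *atpI* unit, 3.38 for the 3 of the *psaI* unit (*psaI*, *ycf4*, *petA*) and 3.15 for *psaA* and *psaB*. It was 2.73 for the *psbE* unit, 2.32 for the *psbB* unit (*psbB*, *psbT*, *psbH*, *petB*, *petD*), 1.77 for the *ndhC* unit and 1.56 for *atpB-atpE*. The 5 loci of the *psbB* unit ranged from 1.56 to 2.58, all below the lowest of the *ndhH* unit (3.32) and of the *atpI* unit (3.03). Loci of a unit can share RNA molecules, so they are not independent measurements. Genes of NDH and of ATP synthase stood apart by unit: every locus from *ndhC* to *ndhJ* differed less than every locus from *ndhH* to *ndhD*, and *atpB-atpE* less than each gene from *atpI* to *atpA*. Units with PSII genes overlapped, with 2.26 to 4.07 in the *psbE* unit and 2.78 to 3.34 for *psbD-psbC* and *psbZ*. In the *petL* unit, *psaJ* was at 0.58 and *petG*, listed at 0 in WT, at 6.97. At 1 d the order was another, with medians of −1.19 for the *psbE* unit, −1.11 for the *psbB* unit, −0.74 for the *atpI* unit and −0.11 for the *ndhH* unit.

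**Figure D4:**
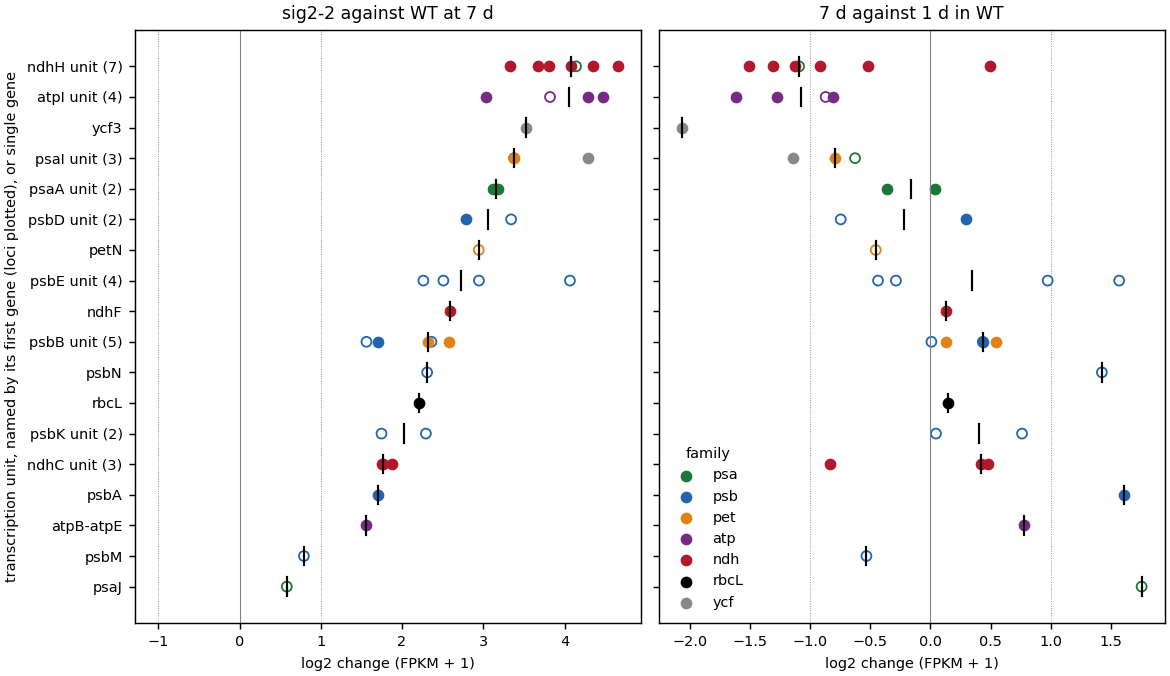
log2 difference of (FPKM + 1) for *sig2-2* against WT at 7 d (left) and for 7 d against 1 d in WT (right), 1 point per locus above 0 in the conditions compared, by transcription unit; bars are medians, colours the families and open circles spans under 300 bases. The *ndhH* and *atpI* units are highest on the left (medians 4.08 and 4.06) and negative on the right (−1.09 and −1.07); both panels share WT at 7 d, and as shares of plastid FPKM the points shift by −2.99 to −2.06 on the left and by 0.36 to 0.87 on the right.

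Between 1 d and 7 d in WT, the members moved little as a group and apart from one another. Of the 44, 20 were higher and 22 lower at 7 d, with a median log2 of −0.14 that turned to 0.40, with 28 higher and 14 lower, as a share of plastid FPKM. On the deposited scale, 4 were at least 2-fold higher (11.9% of all loci and 19.4% of those at 1 FPKM or more) and 9 were at least 2-fold lower (8.52% and 13.9%). Of the other plastid loci for proteins and open reading frames, 2.44% were at least 2-fold higher and 46.3% lower. The 4 were *psbA*, *psaJ*, *psbL* and *psbN*, with log2 differences of 1.61, 1.76, 1.57 and 1.43. At least 2-fold lower were *petG*, listed at 0 at 7 d, *ycf3* (−2.07), *atpI* (−1.62), *ndhG* (−1.51), *ndhH* (−1.31), *atpA* (−1.27), *ycf4* (−1.14), *ndhI* (−1.12) and *psaC* (−1.09). The *psb* family median was 0.37 and 10 of 14 *psb* loci were higher at 7 d. The *atp* median was −0.87 and 4 of 5 loci were lower, but as a share of plastid FPKM that median was only −0.043. In *sig2-2*, 43 of the 44 were higher at 7 d, 42 of them at least 2-fold (12.4% of all loci and 20.2% of those at 1 FPKM or more, and 70.7% of the other plastid protein loci) and 0 lower (9.53% and 15.5%), with a median log2 of 3.16 that was 0.015 as a share of plastid FPKM. Thus 22 members were lower at 7 d than at 1 d in WT and higher in *sig2-2*, and 20 were higher in both. The order of the members by level differed more between conditions among the 24 of 300 bases or more that were above 0 throughout, where Spearman's rho was 0.77 between the genotypes at 1 d, 0.70 between the genotypes at 7 d and 0.67 between the ages in WT (a description over genes).

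On the deposited scale, most nuclear-encoded subunits of the same complexes lay on the other side of 0 at both ages. Of 36 genes listed for PSI, PSII, cytochrome *b6f*, ATP synthase, NDH and the Rubisco small subunit, 35 were higher in *sig2-2* at 1 d, with a median log2 of 0.66. Of the 36, 7 were at least 2-fold higher (against 1.66% of all loci and 2.92% of those at 1 FPKM or more). At 7 d, 34 were lower in *sig2-2*, with a median of −0.40. Only *RBCS2B* (−1.23) was at least 2-fold lower, 1 of 36 and so near the share of all loci (2.33%, and 3.85% of those at 1 FPKM or more). The 2 that were higher at 7 d were *PETM* (0.41) and *PSBO1* (0.12). For Rubisco, *RBCS1A*, a small subunit gene, was at 1942 (WT) and 3076 FPKM (*sig2-2*) at 1 d, and at 22628 and 17384 FPKM at 7 d, while *rbcL* differed in the opposite direction at both ages. *RBCS2B*, another small subunit gene, was the 1 of the 36 that was lower in *sig2-2* at 1 d (−0.46), the same direction as *rbcL* (−0.50). Between 1 d and 7 d, all 36 were at least 2-fold higher in both genotypes (against 11.9% of all loci in WT and 12.4% in *sig2-2*), with medians of 4.59 in WT and 3.76 in *sig2-2*.

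**Figure D5:**
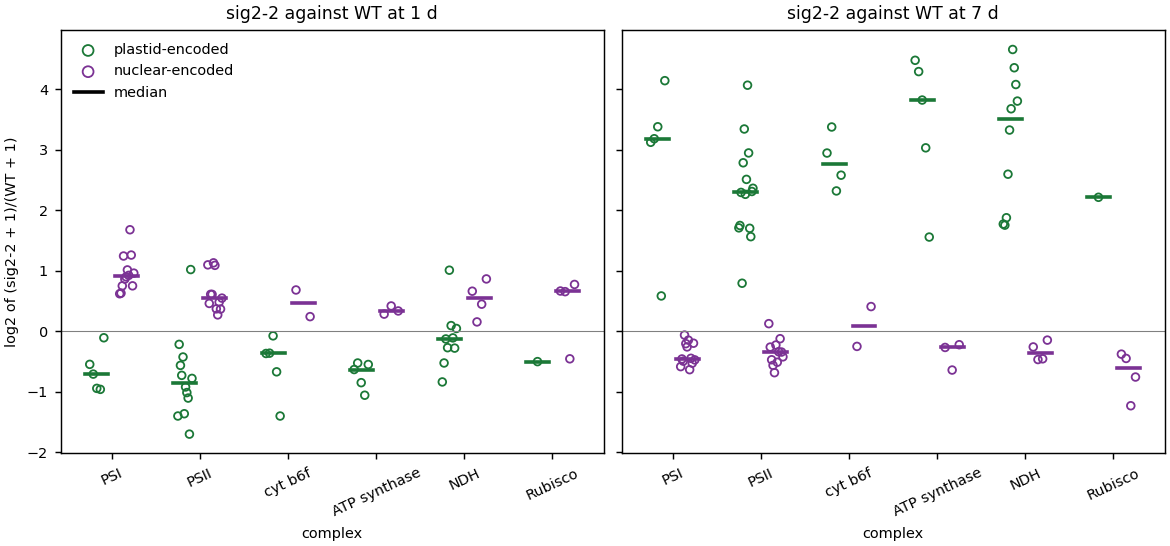
log2 of (*sig2-2* + 1)/(WT + 1) at 1 d and 7 d for plastid-encoded (green) and nuclear-encoded (purple) subunits of each complex, 1 circle per gene above 0 in both genotypes, with bars at the medians. Nuclear genes lie mostly above 0 at 1 d (median 0.66 over 36) and below at 7 d (−0.40), and the plastid genes mostly the reverse. As shares of plastid FPKM, tRNA and rRNA loci included, the medians over all members were instead 0.67 and 0.049.

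Other plastid loci moved alongside. Of the 41 other plastid loci for proteins and open reading frames, 28 were at least 2-fold higher in *sig2-2* at 7 d (68.3%, against 40 of 44 members), with a median log2 of 2.72. At that age 14 of the 41 were listed at 0 in WT and 7 in *sig2-2*. Among loci above 0 in both genotypes at 7 d, the median ratio was 12.1 over 27 other loci and 8.30 over 41 members. At 1 d, 5 of the 41 were at least 2-fold lower (12.2%), and 26 were lower at 1 d and higher at 7 d. *rpoB*, which encodes a core subunit of PEP itself, was at 8.11 (WT) and 6.19 FPKM (*sig2-2*) at 1 d and at 3.75 and 15.2 FPKM at 7 d. The first copy of the 16S rRNA locus was at 1.02 and 0.637 FPKM at 1 d and at 0.734 and 10.7 FPKM at 7 d (14.6-fold), and the 23S rRNA copy beside it differed 11.9-fold at 7 d. The kit is not made to capture such RNA, and the part of plastid RNA without a tail in the members' differences was not tested. AT2G01021, the nuclear locus of highest value, was at 466704 and 328097 FPKM at 1 d and at 54754 and 121352 FPKM at 7 d. Among 141 mitochondrial loci at 7 d, 40 were higher in *sig2-2*, 2 were lower and 99 did not differ. At least 2-fold higher were 7 (4.96%, against 2.95% of all loci). The median ratio was 2.11 over the 32 mitochondrial loci above 0 in both genotypes at 7 d. At 1 d, 17 were higher and 39 lower in *sig2-2*, with a median ratio of 0.699 over 42 loci above 0 in both genotypes.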

How the data were processed

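RNA-Seq was made from 12 samples, 3 biological replicates of each of 4 conditions. According to the study's methods, reads were 55 nt long, and Cufflinks and Cuffdiff gave the values. The aligner, its settings, the versions and the genome build are not given in the sources used here. The deposited unit is FPKM, which the authors combined over the 3 replicates of a condition, in 1 table per condition. The authors' table of comparisons, which holds nuclear loci with log2 ratios, p-values and q-values, was not used. Depth cannot be read from FPKM values, so no counting error is given.

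Tables were joined by locus identifier of the files. Differences are log2 ratios with a pseudocount of 1, counted past 2-fold, and compared with the same count over all 33349 loci. A test across replicates (limma) was planned for replicate columns and could not be used. Members, lists of transcription units and nuclear subunits, and tests were chosen with earlier results of these data known. Values in all conditions are printed for 21 loci chosen by name, and for the highest members of each condition and the 3 largest differences in each direction of each comparison among members at 1 or more in both conditions. *petG*, *petL* (ORF31), *ndhC*, *rpoB*, the rRNA loci and AT2G01021 were added after their values were seen. Of the 36 nuclear genes, 35 matched on identifier as well as position, and 1 on position only. The measures were checked on simulated data. There were 12 alternatives, described in the closing section. Calculations were done with pandas 2.3.3 and numpy 2.4.6 in Python 3.11.15, with plots in matplotlib 3.10.9 and rank correlations in scipy 1.17.1.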

Additional observations from a re-analysis of the deposited data

Results flagged for a closer look

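The genotype difference of the members had opposite directions at the 2 ages, with a median log2 of −0.56 at 1 d and 2.86 at 7 d. This difference between the ages was not tested, since each condition has 1 combined value. Of the members above 0 in all 4 conditions, 8 were past 2-fold in both directions. In the *psbB* unit, *psbB* had a log2 of −1.11 at 1 d and 1.70 at 7 d, *psbT* of −1.70 and 1.56, and *petD* of −1.40 and 2.58. In the *psbE* unit, *psbE* had −1.02 and 2.95, and *psbJ* −1.37 and 2.26. *psbA* had −1.40 and 1.71, *atpI* −1.06 and 3.03, and *ycf3* −1.13 and 3.53. *psbT* and *psbJ* span fewer than 130 bases, and their values in *sig2-2* at 1 d were 0.925 and 2.41 times the smallest value for their span. Scaled to the summed plastid FPKM, *atpI* (0.29), *psbE* (0.40), *psbJ* (0.14) and *ycf3* (0.27) were above 0 at 1 d, and *psbA*, *psbB*, *psbT*, *psbJ* and *petD* were below 0 at 7 d. *ndhC* and *psbL*, listed at 0 in *sig2-2* at 1 d, also lay on both sides.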

How the results depend on the processing

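Log2 values of the medians and of 33 loci, chosen by name or by their values, were followed, 156 in all. Of the 156, 68 changed sign when each condition was scaled to its summed plastid FPKM, tRNA and rRNA loci included. They were 28 for the genotype at 1 d, 17 at 7 d, 7 for age in WT and 16 for age in *sig2-2*. Of these, 35 had been past 2-fold. Under any other alternative 1 changed sign, the *pet* family median for age in WT without members under 300 bases (−0.45 to 0.13). With the pseudocount, that scaling moved members above 0 in both conditions by a log2 of 0.76 to 1.54 (genotype, 1 d), −2.99 to −2.06 (genotype, 7 d), 0.36 to 0.87 (age, WT) and −3.68 to −2.28 (age, *sig2-2*). Under it, 14 members were at least 2-fold higher and 3 lower in *sig2-2* at 1 d, 10 higher and 7 lower at 7 d, 14 higher and 4 lower with age in WT, and 5 higher and 2 lower with age in *sig2-2*. The member medians turned from −0.56 to 0.67 for the genotype at 1 d and from −0.14 to 0.40 for age in WT, and were 0.049 for the genotype at 7 d and 0.015 for age in *sig2-2*. At 1 d the *psa*, *psb*, *pet*, *atp* and *ndh* family medians were 0.67, 0.50, 1.05, 0.82 and 0.84. Members outside the 33 loci that were past 2-fold turned too. These were *psbE* (0.40) at 1 d, and *psbK* (−1.15), *psbH* (−0.53), *ndhC* (−0.70) and *ndhJ* (−0.79) at 7 d. With age in *sig2-2* they were *psbK* (−1.55), *psbZ* (−0.56), *petG* (−1.71), *psbH* (−0.35), *ndhD* (−0.56) and *ndhH* (−0.90). Among the 156, the values past 2-fold that turned were, at 1 d, *atpI* 0.29, *psbJ* 0.14 and *ycf3* 0.27. At 7 d, they were −0.68 for the *psb* and −0.041 for the *pet* family median, *atpB-atpE* −1.39, *ndhK* −0.71, *petB* −0.44, *petD* −0.27, *petN* −0.041, *psbA* −1.24, *psbB* −1.03, *psbD-psbC* −0.15, *psbI* −0.70, *psbJ* −0.73, *psbL* −0.48, *psbN* −0.66, *psbT* −1.42 and *rbcL* −0.73. With age in *sig2-2*, they were −0.49 for the *pet* family median, *atpB-atpE* −0.70, *atpI* −0.88, *ndhE* −0.35, *ndhG* −0.39, *ndhI* −0.033, *petA* −0.49, *petB* −0.13, *petN* −0.82, *psaC* −0.44, *psaJ* −0.32, *psbI* −0.050, *psbN* −0.93, *rbcL* −0.74, *ycf3* −0.86 and *ycf4* −0.42.

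Counts past the fold moved with 4 other settings. With a pseudocount of 10, 0 members were higher and 4 lower at 1 d, and 1 was lower with age in WT. A 1.5-fold limit gave 21 lower at 1 d and 7 higher and 16 lower with age in WT, and a 4-fold limit gave 0 higher and 3 lower at 1 d and 0 higher and 2 lower with age in WT. Without members under 300 bases, 1 was higher and 6 lower at 1 d, 25 were higher at 7 d, 1 was higher with age in WT and 25 were higher with age in *sig2-2*, out of fewer members. The medians over all members kept their direction and side under a pseudocount of 0.1, both filters on low values, centring on the median of loci, scaling to the nuclear sum, and without *ndhB* and shared regions. They also did so without members listed at 0 in either condition, a setting chosen after seeing the data. No paired analysis was possible because the 3 replicates of a condition are combined in 1 value, and for the same reason no replicate could be left out. Depth is unknown, and values of members under 130 bases at 1 d lie near the smallest that such loci show.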
